A study of Mus musculus with 21 samples.

Results

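Transcripts of 8 Polycomb complex subunits, Ezh1, Ezh2, Eed, Suz12, Bmi1, Cbx2, Cbx7 and Cbx8, were followed through 7 sorted fractions of mouse bone marrow. The members were found by matching the RefSeq transcript given for each non-control probe to a gene symbol, and they are 8 of the 18213 genes with a symbol on the array. They were covered by 11 probes, 2 each for Suz12, Bmi1 and Cbx2 and 1 for each of the other 5 genes, and the probe with the highest mean level stands for a gene unless the other probe is named. All 8 passed the filter on dim probes and were tested.

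Polycomb proteins keep genes silent through 2 kinds of complex. In the first, PRC2, Ezh1 or Ezh2 is the enzyme that places a repressive methyl mark on histone H3, and Eed and Suz12 are core partners that the enzyme needs. In the second, PRC1, a ring-finger pair that contains Bmi1 or a relative ubiquitinates histone H2A, and a chromobox protein such as Cbx2, Cbx7 or Cbx8 reads the methyl mark. Ezh2 is best known from dividing cells and Ezh1 from resting ones, and Bmi1 and Cbx7 are known for their part in self-renewal of blood stem cells.

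Each fraction came from bone marrow of C57BL/6 mice and was hybridised to 3 one-colour arrays, 21 arrays in all, and no allele or treatment was given. KLS cells (lin-, ckit+, sca1+) hold the stem and multipotent progenitor cells. The erythroid side ran over PreMegE (CD150+, CD105-), CFUe and Ter119 (CD71+, Ter119+), and the myeloid side over PreGM, GMP (CD150-, FCGrI/II+) and Mac1Gr1 (Mac1+, Gr1+). The labels print the same markers for CFUe and PreGM (CD150-, CD105-, FCGrI/II-) and sca1+ for every progenitor, and nothing in them says that the 3 arrays of a fraction came from separate animals, so p-values measure the spread between these samples, which may be technical.

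A level below is the log2 intensity of a probe minus the log2 of the array's 75th percentile, so 0 is the brightness of that percentile and a step of 1 is a 2-fold difference. Levels of different probes cannot be ranked against each other, and fewer cells of a type and less RNA per cell cannot be told apart in such bulk samples. The 75th percentile itself lay between 196 and 292 intensity units in Ter119, between 345 and 401 in Mac1Gr1 and between 503 and 1010 in the other fractions. Erythroid markers set CFUe apart from PreGM, with the summed linear level of 7 genes at 102 to 121 in CFUe and 5.94 to 7.13 in PreGM. The same erythroid sum was highest in Ter119, at 1337 to 1742, and was 1.89 to 2.31 in Mac1Gr1. A sum over 6 macrophage genes was 18.5 to 51.8 in KLS and 0.337 to 0.741 in PreMegE, and its part in the KLS levels was not tested. In the Ter119 fraction 10 granulocytic genes, all well above background there, summed to 4181 to 5357, against 4303 to 4899 in Mac1Gr1 and 5.33 to 41.1 in CFUe, and 6 B cell genes summed to 96.6 to 139, against 20.4 to 35.4 in Mac1Gr1. The median log2 level of the 10 granulocytic genes was 7.31 to 7.51 in Ter119 and 8.52 to 8.78 in Mac1Gr1. Ly6a, which encodes Sca1, lay at 2.57 ± 0.17 (SD, n = 3) in KLS, while among the CFUe arrays 1 of 3 was well above background. Its mean was -3.14 in PreMegE, -0.31 in PreGM, 2.10 in GMP, 3.74 in Ter119 and 5.38 in Mac1Gr1, so it was not highest in KLS. Y-linked transcripts were seen on all 3 arrays of KLS, PreMegE and Ter119, and Xist on all 3 of GMP and Mac1Gr1 and on 2 of 3 of CFUe and PreGM, whose replicate 3 carried the Y-linked ones.

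The promoters of Ezh2, Suz12 and Ezh1 are shown as examples. With the brighter probes Ezh2 and Suz12 fell at both last steps, while Ezh1 rose relative to other transcripts. Bmi1 also fell at both, and its promoter is not shown. RefSeq promoters (mouse GRCm38.p6) span 250 bases before to 50 after a gene's start, and 7 of the 8 members had one. Cbx2 had none. They lie at chr6:47594981-47595280 on the minus strand for Ezh2, chr11:79992856-79993155 on the plus strand for Suz12 and chr11:101226414-101226713 on the minus strand for Ezh1. Those of the others lie at chr7:89980927-89981226 (minus) for Eed, chr2:18676768-18677067 (plus) for Bmi1, chr15:79932597-79932896 (minus) for Cbx7 and chr11:119040864-119041163 (minus) for Cbx8. Capitals mark the letters TTTCCCGC, TTTCGCGC, TTTGCCGC or TTTGGCGC, a form of the sequence bound by E2F factors, which drive cell cycle genes, searched on both strands.
Ezh2: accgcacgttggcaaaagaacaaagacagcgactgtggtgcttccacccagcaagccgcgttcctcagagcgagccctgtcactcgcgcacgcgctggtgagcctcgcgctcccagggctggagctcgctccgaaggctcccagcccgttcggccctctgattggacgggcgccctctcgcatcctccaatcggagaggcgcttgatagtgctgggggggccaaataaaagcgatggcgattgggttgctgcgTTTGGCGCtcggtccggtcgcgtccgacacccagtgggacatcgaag
Suz12: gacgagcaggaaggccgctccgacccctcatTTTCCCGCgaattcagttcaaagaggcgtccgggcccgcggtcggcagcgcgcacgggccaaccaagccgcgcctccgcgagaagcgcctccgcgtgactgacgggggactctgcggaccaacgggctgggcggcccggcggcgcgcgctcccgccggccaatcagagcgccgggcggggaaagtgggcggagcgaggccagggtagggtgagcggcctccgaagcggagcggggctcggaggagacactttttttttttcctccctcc
Ezh1: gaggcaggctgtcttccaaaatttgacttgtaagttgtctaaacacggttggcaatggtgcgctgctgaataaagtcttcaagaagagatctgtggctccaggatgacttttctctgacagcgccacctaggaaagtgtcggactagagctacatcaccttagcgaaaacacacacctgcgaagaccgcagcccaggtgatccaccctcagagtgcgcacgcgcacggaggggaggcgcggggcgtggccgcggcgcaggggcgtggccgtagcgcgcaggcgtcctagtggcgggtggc

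In Ezh2 TTTGGCGC begins 3 bases after the start site, and in Suz12 TTTCCCGC begins 219 bases before it. No such letters were found in the windows of the other 5 members, among them Bmi1, which also fell at both last steps. Over all 32851 promoters 744 held one of the 4 forms, a share of 2.26%. The windows were rich in CG dinucleotides, with 31 in Ezh2, 41 in Suz12 and 23 in Ezh1 against a median of 7 over all promoters. These matches are a description of the letters only.

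**Figure D1:**
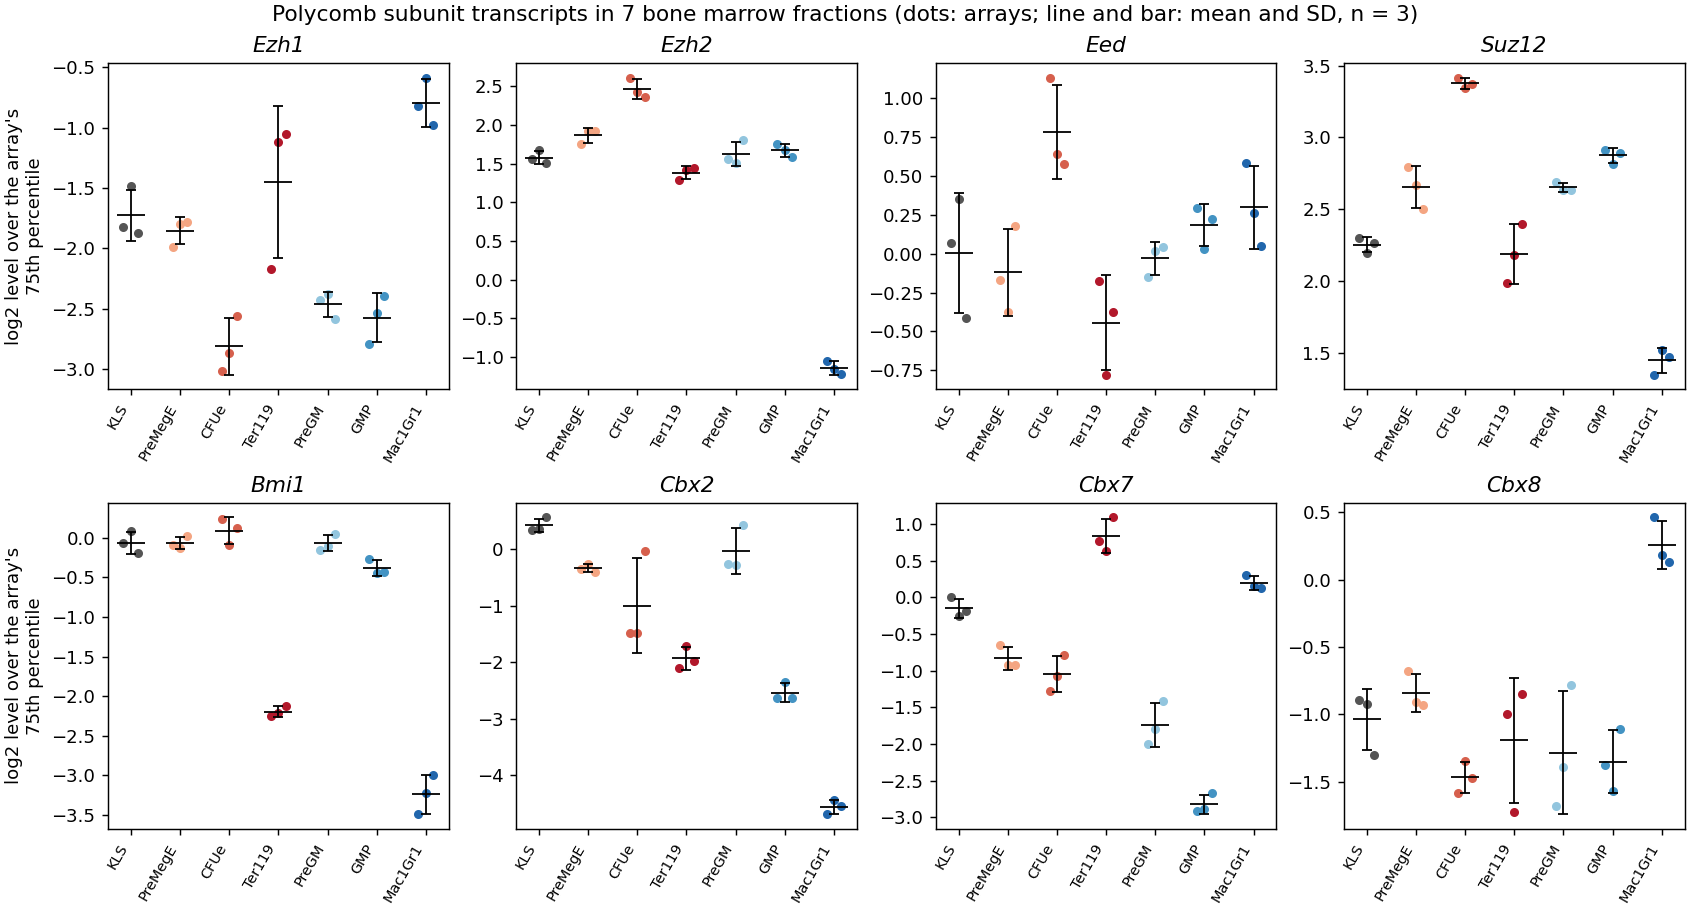
Level of each of the 8 subunits (log2 over the array's 75th percentile, vertical axis, on a scale of its own in each panel) in the 7 fractions, with a dot for each array and a line and bar for the mean and SD of 3 arrays. Ezh2, Suz12, Bmi1 and Cbx2 were lowest in Mac1Gr1, where Ezh1 and Cbx8 were highest, and Cbx7 was lowest in GMP and highest in Ter119. Scaling to spike-in probes changed the direction at the last steps for Ezh1 and Cbx8.

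To ask at which step of either lineage the subunits changed, all 21 arrays were fitted together with limma over 29538 probes, and calls were made at 2-fold or more with an adjusted p under 0.05. Over the 7 fractions 8 of 8 members differed in the F-test, as did 94.7% of all probes. Of the 48 pairs of member and step, 16 were called, and 13 of these lay at the last step of a lineage. From CFUe to Ter119, 2 members rose and 4 fell (57.2% of all probes were called), and from GMP to Mac1Gr1 3 rose and 4 fell (56.7% of all probes). The member share at each of these steps was thus read against a background over 50%. With spike-in scaling no member was called higher at either step (Cbx7 had 0.49 and 0.99), while 6 fell from CFUe to Ter119 (69.8% of all probes called, 56.1% lower) and 5 from GMP to Mac1Gr1 (76.4% called, 70% lower). From KLS to PreMegE 0 members were called by limma (2 had an adjusted and 4 an unadjusted p under 0.05) where 12.4% of probes were, and from PreMegE to CFUe 0 (5 with an adjusted and 6 with an unadjusted p under 0.05) where 24.7% were. From KLS to PreGM 1 member fell, with 8.64% of probes called, and from PreGM to GMP 2 fell, with 10.4% called. Spike-in scaling added drops of Ezh1 (-1.35) and Cbx2 (-1.07) from KLS to PreGM, with 19% of probes called. From PreGM to GMP it gave 3 members higher, Suz12 (1.24), Eed (1.23) and Ezh2 (1.06), and 1 lower, Cbx2 (-1.49), with 49.2% of probes called and 47.4% higher. From KLS to PreMegE it gave 2 members lower, Cbx2 (-1.22) and Cbx7 (-1.14), with 15.2% called, and from PreMegE to CFUe 3 lower, Ezh1 (-1.47), Cbx2 (-1.18) and Cbx8 (-1.14), with 27.2% called.

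Ezh2, the PRC2 enzyme of dividing cells, was lowest in Mac1Gr1 and highest in CFUe. Its levels were 1.56, 1.67 and 1.51 in KLS, 1.75, 1.92 and 1.93 in PreMegE, 2.61, 2.43 and 2.36 in CFUe and 1.29, 1.41 and 1.45 in Ter119. Myeloid levels were 1.56, 1.51 and 1.81 in PreGM, 1.75, 1.67 and 1.59 in GMP and -1.05, -1.15 and -1.22 in Mac1Gr1. The 3 Mac1Gr1 arrays lay far below every other array, the 3 CFUe arrays lay above all others, and KLS, PreGM and GMP overlapped. From GMP to Mac1Gr1 Ezh2 fell by 2.81 on the log2 scale, or 7.03-fold (SE 0.11, limma adjusted p 3.28e-13). It fell by 1.08 from CFUe to Ter119 (SE 0.11, adjusted p 6.73e-08), and this change was under 2-fold with quantile scaling (-0.68) and in the series table (-0.75). The rise of 0.60 from PreMegE to CFUe (adjusted p 1.65e-04) was also under 2-fold.

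Ezh1, the alternative PRC2 enzyme, ran the other way. It lay at -1.83, -1.49 and -1.87 in KLS, -1.99, -1.80 and -1.78 in PreMegE, -3.02, -2.87 and -2.56 in CFUe and -2.17, -1.12 and -1.06 in Ter119. In PreGM it lay at -2.43, -2.38 and -2.59, in GMP at -2.79, -2.53 and -2.40 and in Mac1Gr1 at -0.82, -0.59 and -0.98. All Mac1Gr1 arrays lay above those of the other fractions, and all Ter119 arrays above those of CFUe, although Ter119 replicate 1 was well below the others of its fraction. Ezh1 rose by 1.78 from GMP to Mac1Gr1 (3.43-fold, SE 0.23, limma adjusted p 2.16e-06), which became -0.26 with spike-in scaling. The rise from CFUe to Ter119 was 1.36 (2.57-fold, SE 0.23, adjusted p 4.30e-05), which became -0.017 with spike-in scaling and was under 2-fold with quantile scaling (0.86) and in the series table (0.84). The drop of 0.96 from PreMegE to CFUe (adjusted p 0.00227) was under 2-fold but passed it without PreMegE replicate 1 (-1.02), without CFUe replicate 3 (-1.09) and with the slide as a block (-1.09) or spike-in scaling (-1.47). From KLS to PreGM it fell by 0.74 (adjusted p 0.0265), also under 2-fold.

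The difference between Ezh1 and Ezh2 on the same array is free of the scaling between arrays, and its changes between fractions compare the enzymes directly. In KLS Ezh1 minus Ezh2 was -3.31 ± 0.13 (SD, n = 3), in PreMegE -3.72 ± 0.02 and in CFUe -5.28 ± 0.36. It came back to -2.83 ± 0.54 in Ter119, at 2.45 above CFUe, a change of 5.45-fold in favour of Ezh1. On the myeloid side it stayed near -4.09 ± 0.27 in PreGM and -4.24 ± 0.28 in GMP and reached 0.35 ± 0.19 in Mac1Gr1, a change of 4.59 or 24.1-fold. The arrays of the 2 fractions did not overlap at either step (exact two-sided permutation p 0.1 for each, the smallest that 3 against 3 arrays allow, and 0.13 after Benjamini-Hochberg adjustment over 52 comparisons of probe pairs). The change from CFUe to Ter119 ranged from 2.27 to 2.76 when each of the 6 arrays was left out in turn, and that from GMP to Mac1Gr1 from 4.44 to 4.72. It was 3.12 on the slide that held both CFUe and Ter119. Since the probes differ in brightness for reasons of their own, the value of 0.35 does not say that Ezh1 exceeded Ezh2 in Mac1Gr1.

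**Figure D2:**
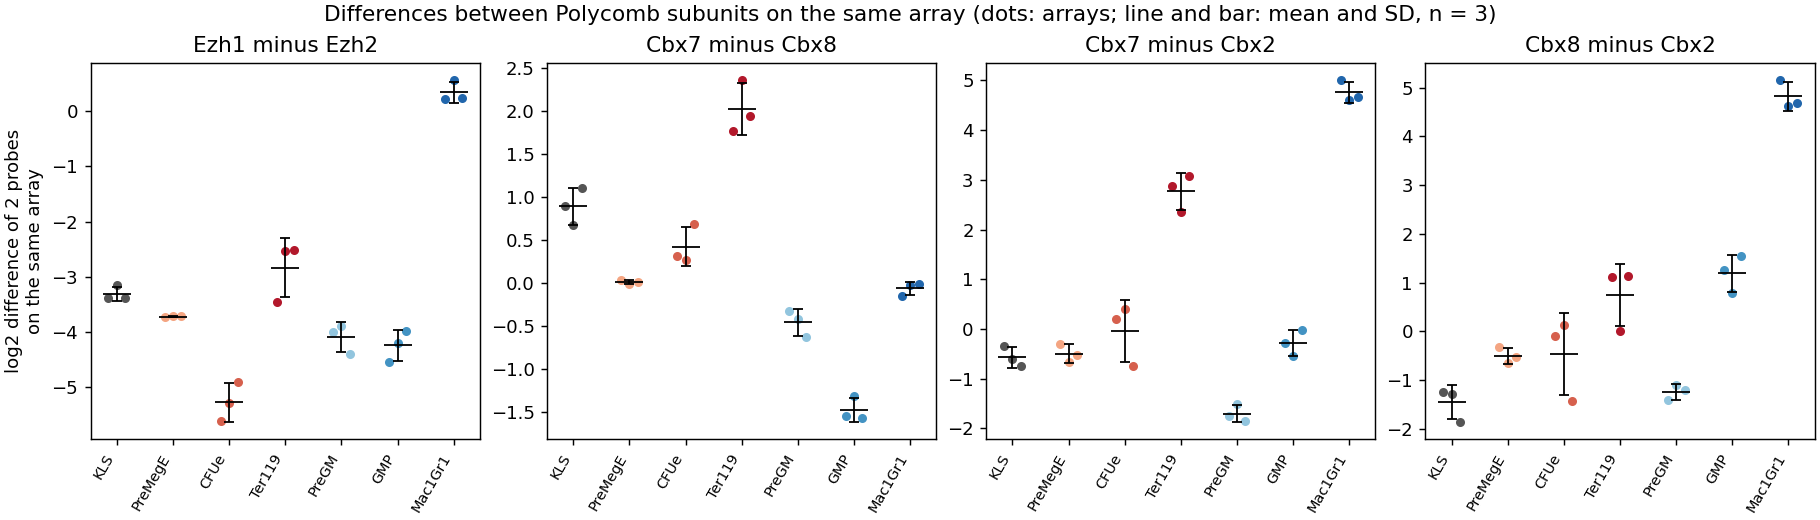
Difference between the log2 levels of 2 subunits on the same array (vertical axis, its zero arbitrary since probes differ in brightness) in the 7 fractions, with a dot for each array and a line and bar for the mean and SD of 3 arrays. Ezh1 minus Ezh2 was highest in Mac1Gr1 (0.35) and lowest in CFUe (-5.28), and Cbx7 minus Cbx2 and Cbx8 minus Cbx2 were highest in Mac1Gr1 (4.76 and 4.82), where the Cbx2 probe was well above background on 1 of 3 arrays.

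Among the PRC2 core partners, Suz12 fell at both last steps and Eed at the erythroid one. Suz12 lay at 2.30, 2.20 and 2.26 in KLS, 2.79, 2.67 and 2.50 in PreMegE, 3.41, 3.34 and 3.37 in CFUe and 1.99, 2.18 and 2.40 in Ter119. It lay at 2.69, 2.63 and 2.64 in PreGM, 2.92, 2.82 and 2.89 in GMP and 1.35, 1.52 and 1.47 in Mac1Gr1. CFUe stood above and Mac1Gr1 below all other arrays, as for Ezh2. The probe fell by 1.43 from GMP to Mac1Gr1 (SE 0.11, limma adjusted p 1.71e-09) and by 1.19 from CFUe to Ter119 (SE 0.11, adjusted p 1.94e-08). The latter was under 2-fold with quantile scaling (-0.71) and in the series table (-0.80). The other Suz12 probe gave -0.75 from GMP to Mac1Gr1 (adjusted p 2.65e-06) and -0.17 from CFUe to Ter119 (adjusted p 0.119), so both calls rested on the brighter probe. In Ter119 against Mac1Gr1 the brighter probe gave 0.74 and the other 1.08, of which the latter was called.

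Eed, which binds the methyl mark and stimulates the enzyme, had the narrowest range of fraction means of the 8 probes, 1.23. Its levels were 0.070, 0.35 and -0.41 in KLS, -0.17, -0.37 and 0.18 in PreMegE, 1.13, 0.64 and 0.57 in CFUe and -0.18, -0.78 and -0.38 in Ter119. They were -0.15, 0.017 and 0.045 in PreGM, 0.30, 0.032 and 0.22 in GMP and 0.58, 0.26 and 0.052 in Mac1Gr1. Each fraction overlapped its neighbour in the order of means, but all CFUe arrays lay above those of Ter119. Eed fell by 1.23 from CFUe to Ter119 (SE 0.22, limma adjusted p 6.49e-05). Between GMP and Mac1Gr1 the change was 0.12 (SE 0.22, adjusted p 0.638), which with spike-in scaling became -1.92, close to the median of all probes there. From PreMegE to CFUe it was 0.90 (adjusted p 0.00211), and over 2-fold without PreMegE replicate 3 (1.05) or CFUe replicate 3 (1.01).

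Bmi1, the ring-finger partner in PRC1, was lowest in both mature fractions. In the erythroid order its levels were -0.070, 0.080 and -0.19 in KLS, -0.094, -0.13 and 0.020 in PreMegE, 0.24, -0.094 and 0.12 in CFUe and -2.25, -2.21 and -2.12 in Ter119. They were -0.15, -0.11 and 0.047 in PreGM, -0.27, -0.45 and -0.44 in GMP and -3.49, -3.22 and -3.00 in Mac1Gr1. KLS, PreMegE, CFUe and PreGM overlapped, GMP lay apart below them, and Ter119 and Mac1Gr1 were separate from all of these and from each other. Bmi1 was 0.47 higher in CFUe than in GMP (limma adjusted p 0.00485). Bmi1 fell by 2.28 from CFUe to Ter119 (4.87-fold, SE 0.13, limma adjusted p 3.79e-11) and by 2.85 from GMP to Mac1Gr1 (7.22-fold, SE 0.13, adjusted p 2.17e-12). The other Bmi1 probe fell by 1.57 (adjusted p 6.65e-07) and by 1.79 (adjusted p 1.23e-07) at these steps. With spike-in scaling the drops were -3.66 and -4.89.

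The chromobox readers took 3 different courses. Cbx2 lay at 0.35, 0.36 and 0.56 in KLS, -0.35, -0.25 and -0.40 in PreMegE, -1.48, -1.48 and -0.035 in CFUe and -2.11, -1.72 and -1.98 in Ter119. Its levels were -0.26, -0.29 and 0.43 in PreGM, -2.64, -2.35 and -2.64 in GMP and -4.69, -4.44 and -4.55 in Mac1Gr1, where 1 of 3 arrays was well above background. The high array in CFUe and the high one in PreGM were those with Y-linked transcripts, at 1.44 and 0.71 above the mean of the other arrays of their fraction, and the part of this in the result was not tested. From PreGM to GMP Cbx2 fell by 2.50 (5.68-fold, SE 0.29, limma adjusted p 6.32e-06), and the arrays of those fractions did not overlap. The drop from GMP to Mac1Gr1 was -2.02 (adjusted p 6.63e-06), and normexp background correction gave -0.39 (adjusted p 0.108). The drop from CFUe to Ter119 was -0.94 (adjusted p 0.00744), under 2-fold, but was called under quantile scaling (-1.34), in the series table (-1.47), with a block for the sex-chromosome transcripts (-1.65) and without CFUe replicate 1 (-1.18), CFUe replicate 2 (-1.18) or Ter119 replicate 2 (-1.05). Without CFUe replicate 3 the drop from PreMegE to CFUe was called (-1.15, adjusted p 9.55e-05, against -0.66). The other Cbx2 probe was dim, not well above background on any Ter119 array and on 1 of 3 in CFUe, GMP and Mac1Gr1, and gave -0.84 from PreGM to GMP (adjusted p 0.121), 0.61 from GMP to Mac1Gr1 (adjusted p 0.160) and 0.93 from CFUe to Ter119 (adjusted p 0.0367).

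Cbx7 fell through the myeloid progenitors and rose at both last steps. Its levels were -0.0013, -0.25 and -0.19 in KLS, -0.65, -0.93 and -0.92 in PreMegE, -1.27, -1.08 and -0.79 in CFUe and 0.77, 0.64 and 1.09 in Ter119. They were -2.0, -1.80 and -1.41 in PreGM, -2.92, -2.88 and -2.67 in GMP and 0.31, 0.16 and 0.12 in Mac1Gr1. Ter119 and Mac1Gr1 lay above all other fractions, and only PreMegE and CFUe overlapped among neighbours in the order. Cbx7 fell by 1.59 from KLS to PreGM (3.01-fold, SE 0.16, limma adjusted p 3.17e-06). The further drop from PreGM to GMP was -1.09 (SE 0.16, adjusted p 1.07e-04). It was under 2-fold without PreGM replicate 3 (-0.92), under quantile scaling (-0.93), in the series table (-0.98), under normexp (-0.85), with the sex-chromosome block (-0.94) and with spike-in scaling (-0.070, adjusted p 0.823). The rise was 3.02 from GMP to Mac1Gr1 (8.11-fold, SE 0.16, adjusted p 2.81e-11), or 0.99 with spike-in scaling. In the erythroid last step it was 1.87 (3.67-fold, SE 0.16, adjusted p 1.49e-08), or 0.49 with spike-in scaling (adjusted p 0.113). The drop of 0.68 from KLS to PreMegE (adjusted p 0.00492) was under 2-fold.

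Cbx8 was high in Mac1Gr1 alone among the fractions. It lay at -0.89, -0.92 and -1.30 in KLS, -0.68, -0.91 and -0.93 in PreMegE, -1.58, -1.35 and -1.47 in CFUe and -1.0, -1.72 and -0.85 in Ter119. It lay at -1.68, -1.39 and -0.78 in PreGM, -1.37, -1.57 and -1.11 in GMP and 0.46, 0.18 and 0.13 in Mac1Gr1. The 6 fractions below Mac1Gr1 overlapped with their neighbours in the order of means. The rise from GMP to Mac1Gr1 was 1.61 (3.04-fold, SE 0.23, limma adjusted p 6.99e-06) and became -0.43 with spike-in scaling (adjusted p 0.243). Between CFUe and Ter119 the change was 0.28 (SE 0.23, adjusted p 0.286), and -1.11 with spike-in scaling. From PreMegE to CFUe it fell by 0.63 (adjusted p 0.0317), under 2-fold.

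Differences between chromobox probes on the same array showed where these readers parted. Cbx7 minus Cbx8 lay at 0.89 ± 0.22 (SD, n = 3) in KLS, 0.42 ± 0.23 in CFUe and -1.47 ± 0.14 in GMP. It was 2.36 lower in GMP than in KLS (5.15-fold, exact two-sided permutation p 0.1, adjusted 0.13, arrays apart), and differed by -0.47 between CFUe and KLS (p 0.2, adjusted 0.242), where the arrays overlapped. All KLS arrays carried Y-linked transcripts and all GMP arrays Xist, so fraction and sex-chromosome transcripts cannot be told apart between KLS and GMP. Cbx7 minus Cbx2 lay at -0.57 ± 0.21 in KLS, -0.046 ± 0.62 in CFUe and -0.28 ± 0.25 in GMP, and neither change from KLS separated the arrays (0.52 for CFUe, exact permutation p 0.3, and 0.29 for GMP, p 0.2). Within the slide that held both, the CFUe difference was -0.40, and with the other Cbx2 probe the GMP difference was -1.45. Cbx7 gained 5.04 over Cbx2 from GMP to Mac1Gr1, or 32.9-fold, and Cbx8 gained 3.63, or 12.4-fold (exact permutation p 0.1 for each). Both rest on the brighter Cbx2 probe, and on Mac1Gr1 arrays of which 1 in 3 was well above background for it. Of the 52 comparisons of probe pairs, arrays were apart in 40. The chromobox differences depend on each other and share arrays. No share over pairs of other probes is given beside this count, so it is not a result about these subunits.

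The last steps were compared under both scalings because the all-probe median moved with the scaling there. From CFUe to Ter119 it was 0.047 with the 75th percentile and -1.33 with the spike-in probes, and from GMP to Mac1Gr1 it was 0.18 and -1.86. Relative to the spike-in median, Ezh1 changed by 1.32 and 1.60 at the erythroid and myeloid step, Cbx7 by 1.83 and 2.84 and Cbx8 by 0.23 and 1.43. Ezh2 changed by -1.13 and -2.99, Suz12 by -1.24 and -1.60, Bmi1 by -2.33 and -3.03 and Cbx2 by -0.99 and -2.20. Eed changed by -1.27 and -0.060. The spike-in scaling moves all probes of a comparison by the same amount, so the order of the members and their distances from the median are fixed by construction. The sign of the change, which is not fixed, turned for Ezh1 and Cbx8, and for Eed at the myeloid step. The Ter119 values were measured in the fraction that carried the granulocytic and B cell transcripts given above, and the part of these in the Ter119 levels was not tested.

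**Figure D3:**
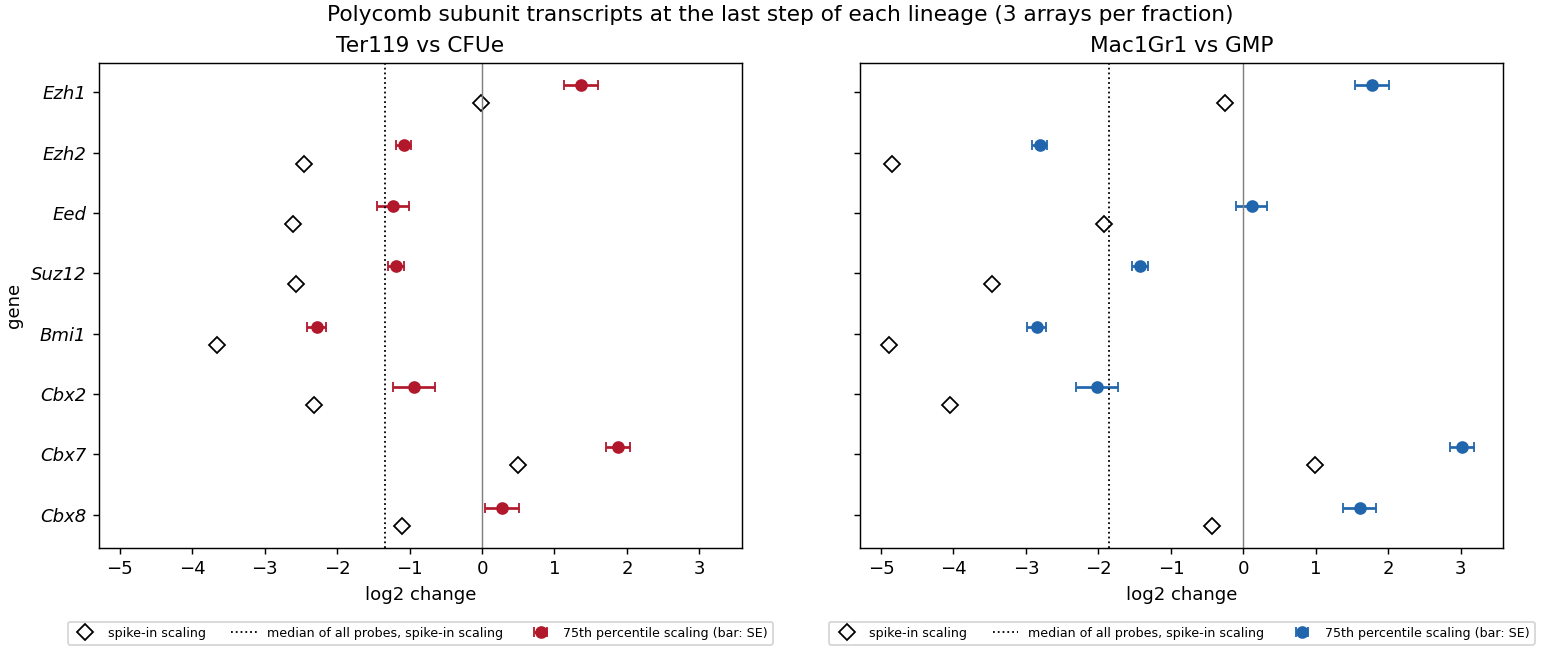
Change in log2 level of the 8 subunits from CFUe to Ter119 (left) and from GMP to Mac1Gr1 (right), as filled dots with SE for the 75th percentile scaling and as open diamonds for the spike-in scaling (3 arrays per fraction). Diamonds lie to the left of the dots throughout, and they cross zero for Ezh1 (-0.017 and -0.26), for Cbx8 (-1.11 and -0.43) and on the right for Eed (-1.92). Those of Ezh1, Cbx7 and Cbx8 lie to the right of the dotted all-probe median of that scaling, a distance fixed by the common shift of all probes.

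Matched stages of the lineages were compared to find subunits that set them apart, and 6 of 24 pairs were called. Between PreMegE and PreGM 0 members were called by limma (1, Cbx7, had an adjusted and 3 an unadjusted p under 0.05), with 12% of all probes called. Cbx7 was 0.91 higher in PreMegE (SE 0.16, adjusted p 4.65e-04), and 1.07 without PreGM replicate 3 and 1.06 with spike-in scaling. Cbx2 was called lower in PreMegE when the sex-chromosome transcripts were a block (-1.01, adjusted p 5.33e-04, against -0.30). Between CFUe and GMP 2 members were higher in CFUe, with 26.3% of probes called: Cbx7 by 1.78 (3.43-fold, adjusted p 8.92e-08) and Cbx2 by 1.54 (2.92-fold, adjusted p 2.52e-04). With spike-in scaling these were 0.40 and 0.17, and 2 members were instead called lower in CFUe, Ezh1 (-1.62, adjusted p 4.32e-04) and Cbx8 (-1.49, adjusted p 6.65e-04), with 59.7% of probes called and 57.4% lower. The other Cbx2 probe gave -0.035. Between Ter119 and Mac1Gr1 3 members were higher in Ter119 and 1 lower, with 41.9% of probes called. Ezh2 was higher by 2.53 (5.76-fold, SE 0.11, adjusted p 5.31e-12), Cbx2 by 2.63 (adjusted p 5.32e-07; 0.29 with the other probe; the brighter probe was measured above background on 1 of 3 Mac1Gr1 arrays) and Bmi1 by 1.04 (adjusted p 1.72e-06). Bmi1 was under 2-fold without Mac1Gr1 replicate 1 (0.92), under quantile scaling (0.74), normexp (0.67), the series table (0.75) and the sex-chromosome block (0.93), with the other probe (0.92), and with spike-in scaling (0.32). Cbx8 was lower in Ter119 by 1.45 (SE 0.23, adjusted p 3.37e-05). Spike-in scaling gave 2 members higher, Ezh2 (1.80) and Cbx2 (1.90), and 3 lower, Ezh1 (-1.38), Eed (-1.47) and Cbx8 (-2.17), with 49.1% of probes called. All Ter119 arrays carried Y-linked transcripts and all Mac1Gr1 arrays Xist, so fraction and sex-chromosome transcripts cannot be told apart in this comparison. The sex-chromosome block could be estimated only within CFUe and PreGM, the fractions that held both kinds of array.

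Whether a step differed between the lineages was tested as an interaction. At the second step (PreMegE to CFUe against PreGM to GMP) 1 member differed, Cbx2, with 20.2% of probes called. Cbx7 had a difference of 0.87 there (adjusted p 0.00777), under 2-fold, and passed it without PreGM replicate 1 and with the sex-chromosome block (1.02, adjusted p 5.89e-04). With spike-in scaling Cbx2 was not called (0.31), whereas 4 members were more negative on the erythroid side, Ezh1 (-2.38, adjusted p 4.76e-04), Cbx8 (-2.09, adjusted p 0.0011), Bmi1 (-1.06) and Suz12 (-1.03), with 64.8% of probes called and 63.6% in that direction. At the last step (CFUe to Ter119 against GMP to Mac1Gr1) 5 differed, 2 with a more positive change on the erythroid side and 3 with a more negative one, with 39.9% of probes called. With spike-in scaling 3 were called, all more positive on the erythroid side, Ezh2 (2.38), Cbx2 (1.74) and Bmi1 (1.22), with 37.9% of probes called. Ezh2 lost 1.08 in the erythroid and 2.81 in the myeloid step, a difference of 1.73 (SE 0.15, limma adjusted p 6.27e-08). Bmi1 and Suz12, which fell at both, were not called (0.57, adjusted p 0.0128, and 0.24, adjusted p 0.188), nor was Ezh1 (-0.41, adjusted p 0.303), which is not a test that these steps were alike.

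Ezh2 was set beside 14 cell cycle genes because it is known from dividing cells. Their median level lay between 4.03 and 4.32 on the CFUe arrays, between 1.03 and 1.24 on the Mac1Gr1 arrays and between 2.72 and 3.71 on the rest, with Mcm2 lacking a value on 1 CFUe array. Mac1Gr1 and CFUe thus stood at the same ends for both measures, while the GMP arrays, at 3.62 to 3.71 for the cell cycle median, were not above PreGM, at 2.72 to 2.91, in Ezh2. All 14 genes fell from GMP to Mac1Gr1 (median -2.19, against 0.18 for all probes), led by Mcm2 (-4.11), Mcm5 (-3.88), Tyms (-3.63) and Pcna (-3.09), which serve DNA replication or the supply of its building blocks. At the erythroid last step 10 of 14 fell (median -1.13, against 0.047), and from PreMegE to CFUe 5 rose (median 0.92, against 0.12). Beside these counts, 56.7%, 57.2% and 24.7% of all probes were called at these steps, in the order given. The part of the share of dividing cells in the Ezh2 levels was not tested.

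**Figure D4:**
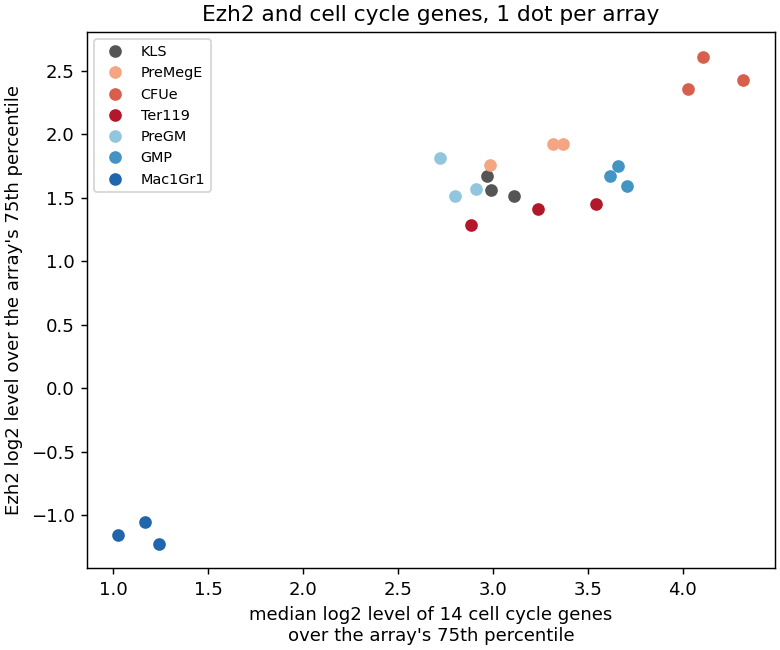
Ezh2 level (vertical axis) against the median level of 14 cell cycle genes (horizontal axis), both log2 over the array's 75th percentile, with 1 dot per array coloured by fraction. The Mac1Gr1 arrays lie at the lower left (Ezh2 from -1.22 to -1.05) and the CFUe arrays at the upper right (2.36 to 2.61), with the other 5 fractions between 1.29 and 1.93.

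Other Polycomb genes were taken from lists of accessory subunits, other PRC1 subunits and enzymes that remove the marks. Of 8 PRC2 accessory and histone-binding genes 1 rose and 5 fell from GMP to Mac1Gr1 (median -1.75, against 0.18 for all probes), and 1 rose and 3 fell from CFUe to Ter119 (median -0.70, against 0.047), beside 56.7% and 57.2% of all probes called. Phf1, a Polycomb-like protein that ties PRC2 to chromatin, rose by 5.42 from GMP to Mac1Gr1 (SE 0.15, limma adjusted p 4.26e-14), while its relative Phf19 fell by 2.15. Epop, a PRC2 partner, fell by 4.89 at that step, and Rbbp7, a histone-binding subunit, by 3.62. Jarid2 and Aebp2, cofactors of PRC2, changed under 2-fold at both last steps.

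Of 22 other PRC1 genes tested, 1 rose and 7 fell from GMP to Mac1Gr1 (median -0.29), and 4 rose and 6 fell from CFUe to Ter119 (median -0.53), beside the 56.7% and 57.2% of all probes called at these steps. Pcgf6 (-3.79) and E2f6 (-3.68), which belong to the same variant PRC1, and Kdm2b (-3.50), which brings a variant PRC1 to CG-rich DNA, fell from GMP to Mac1Gr1. Bcor, a partner of that last variant, was 6.46 higher in Ter119 than in Mac1Gr1 (SE 0.32, limma adjusted p 3.66e-11). The catalytic subunit Rnf2 fell by 1.07 from GMP to Mac1Gr1 (adjusted p 1.96e-05), and the chromobox gene Cbx6 by 2.33 there and by 1.63 from CFUe to Ter119. Jarid2, Aebp2, Rnf2 and Cbx6 were named after their values were seen, as relatives of the members.

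Of 5 genes tested for removal of the marks, 2 rose from GMP to Mac1Gr1 (median 0.34, against 0.18 for all probes), beside 56.7% of all probes called. The demethylase Kdm6b rose by 2.89 (SE 0.44, adjusted p 1.30e-05). Asxl1, a partner of the H2A deubiquitinase Bap1, was 1.91 lower in Ter119 than in Mac1Gr1, and Bap1 fell by 1.57 from CFUe to Ter119. The 3 chromobox genes of heterochromatin, which do not belong to Polycomb, fell at both last steps, with Cbx5 at -2.82, Cbx3 at -2.26 and Cbx1 at -1.44 from GMP to Mac1Gr1. Of all probes, 57.2% were called at the erythroid and 56.7% at the myeloid last step.

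**Figure D5:**
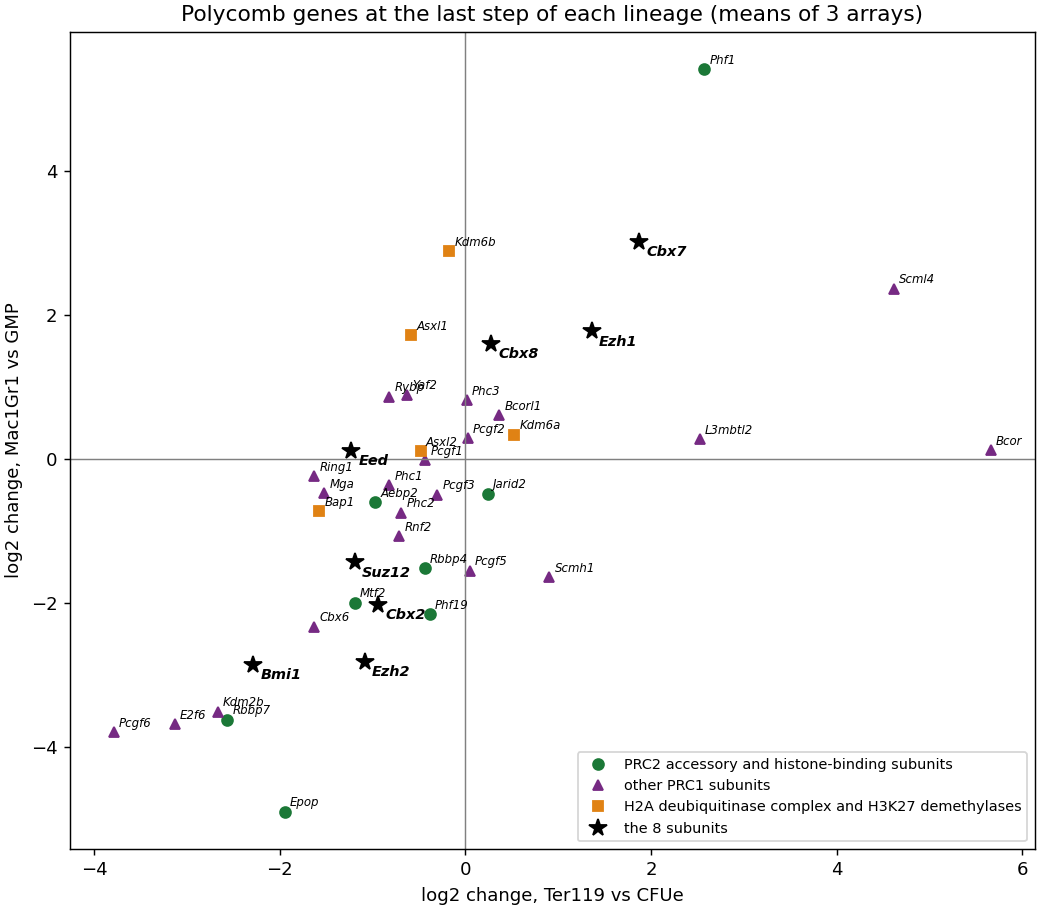
Change in log2 level from CFUe to Ter119 (horizontal axis) against that from GMP to Mac1Gr1 (vertical axis), both with 75th percentile scaling, for the 8 subunits (stars) and for other Polycomb genes and enzymes that remove the marks, each point a difference of means of 3 arrays, except that Phf1 had a value on 2 CFUe arrays (1 of the genes counted is not plotted). Ezh1 and Cbx7 lie at the upper right (with spike-in scaling Ezh1 had -0.017 and -0.26), and Bmi1, Ezh2, Suz12 and Cbx2 at the lower left.

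Of 9 textbook Polycomb targets tested, 4 fell from KLS to PreMegE (median -1.22), 6 from PreMegE to CFUe (median -2.20), 5 from KLS to PreGM (median -1.41) and 4 from PreGM to GMP (median -0.87), against all-probe medians from -0.021 to 0.13. The shares of all probes called at these steps were 12.4%, 24.7%, 8.64% and 10.4%. From CFUe to Ter119 2 rose and 2 fell (median -0.18), beside 57.2% of all probes called. Between GMP and Mac1Gr1 2 rose and 4 fell (median -0.14), beside 56.7% of all probes called. Hoxa7, a homeobox gene of early blood progenitors, fell by 4.36 there (SE 0.22, limma adjusted p 1.09e-11), and Hoxa9 by 2.91 from CFUe to Ter119. Meis1, a Hox cofactor, fell by 2.11 from PreGM to GMP, and Hoxa5 by 2.07 from KLS to PreMegE. These genes are named at steps where they fell, and the rises at the last steps are given only as counts.

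Members were finally set beside each other and beside 14127 other genes over the 21 arrays, as a description, since arrays of a fraction share their cells. Ezh2 followed Suz12 (Pearson r 0.88) and Bmi1 (0.86) and ran against Cbx8 (-0.84) and Ezh1 (-0.77). Ezh1 ran against Suz12 (-0.87) and with Cbx7 (0.73) and Cbx8 (0.71), while Eed followed no member beyond 0.36 in size. The genes most like Ezh2 were Xrcc6, 6030458C11Rik and Ipp (r 0.99, 0.98 and 0.98), those most like Suz12 were Mrps36, Bcas2 and Oaf (0.99, 0.98 and 0.98) and those most like Bmi1 were Ube2cbp, Prmt3 and Zfp64 (each 0.99). For Ezh1 they were Gm11346, Zbp1 and Pcmtd1 (0.94, 0.94 and 0.93), for Cbx7 Oas1e, Rras and Letm2 (0.95, 0.95 and 0.94) and for Cbx2 Rcor2, Tmem98 and Zfp113 (each 0.96). For Cbx8 they were Atg4c, Uckl1 and Gpatch2l (0.93, 0.92 and 0.92) and for Eed Tmem168, Ubr1 and Coro1c (0.91, 0.90 and 0.89).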

How the data were processed

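Total RNA was labelled in 1 colour with the Agilent spike-in mix and hybridised to whole mouse genome arrays, and per the file headers the authors extracted background-subtracted intensity values with Feature Extraction 10.7.1.1. The deposited series table holds the authors' normalized log2 values and served as an alternative. Here the log2 of the processed intensity minus the log2 of each array's 75th percentile over 43379 non-control spots was used. Spots flagged as outliers (80 to 283 per array) were left out and none was saturated. Spots of a probe were averaged. Of 41174 probes, 29538 were tested, those that exceeded background clearly in every array of 1 or more fractions, and 64.8% of all probes had a symbol through RefSeq. A single limma fit (version 3.58.1, R 4.3.3, 14 residual degrees of freedom) held a mean per fraction, with Benjamini-Hochberg adjustment over all tested probes, and was tested on simulated data. Probe differences within an array were compared with exact two-sided permutation tests. The members and gene lists were chosen with earlier results of these data known. From each list at most 4 genes called in at least 1 comparison were named, those with the largest change among probes that exceeded background in each array compared. Alternatives were quantile and spike-in scaling (7 of 10 spike-in probes), normexp (offset 50, on median spot signals, chosen after seeing the data), no filter, no minimum fold, slide, replicate number or sex-chromosome transcripts as a block, the other probe, the compared fractions alone and each array left out. 1 gene of the other PRC1 list was counted but its own values are not reported here. The number of arrays limits the precision.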

Additional observations from a re-analysis of the deposited data

Results flagged for a closer look

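For 6 of 16 pairs of subunit and step the change differed between the lineages when the difference itself was tested with limma. Of all probes, 20.2% were called for this difference at the second step and 39.9% at the third. At the second step Cbx2 had a difference of 1.84 (SE 0.41, adjusted p 0.00211), with -0.66 from PreMegE to CFUe and -2.50 from PreGM to GMP, but spike-in scaling gave 0.31 and the other Cbx2 probe -0.39. At the third step Ezh2 had a difference of 1.73 (SE 0.15, adjusted p 6.27e-08). Eed had one of -1.34 (SE 0.31, adjusted p 0.00132; -0.69 with spike-in scaling), with -1.23 on the erythroid and 0.12 on the myeloid side. Cbx8 had one of -1.33 (SE 0.33, adjusted p 0.00234; -0.68 with spike-in scaling, adjusted p 0.279) and Cbx7 one of -1.15 (SE 0.23, adjusted p 5.12e-04; -0.49 with spike-in scaling, adjusted p 0.348). A block for the slide gave -0.86 for Cbx7 (adjusted p 0.0754) and for Cbx8 -1.16 (adjusted p 0.0764). Cbx2 had one of 1.08 (SE 0.41, adjusted p 0.0332), which was not called without CFUe replicate 1 (0.84), CFUe replicate 2 (0.84), Ter119 replicate 2 (0.98), GMP replicate 2 (0.99), Mac1Gr1 replicate 1 (1.02, adjusted p 0.0673) or Mac1Gr1 replicate 3 (1.09, adjusted p 0.0512), nor with the sex-chromosome block (0.37), quantile scaling (0.89), the series table (0.85), the slide block (1.39, adjusted p 0.0914), no filter (adjusted p 0.0504) or the other probe (0.32). All 5 differences of the third step involve the Ter119 fraction. Its summed granulocytic level (4181 to 5357) overlapped that of Mac1Gr1 (4303 to 4899). The median log2 level of the 10 genes was lower in Ter119 (7.31 to 7.51) than in Mac1Gr1 (8.52 to 8.78). The part of these transcripts in the differences was not tested.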

How the results depend on the processing

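All 8 members differed over the fractions under each alternative that was run, and 94.7% of all probes did so in the main fit. Under normexp 29195 of 29538 probes differed, and without the filter 32315 of 41174. The count of 8 is thus not a result about these subunits. Without a minimum fold change 26 pairs were called at the steps (16 with it) and 15 between lineages (6 with it). For the difference between lineages 10 were called (6 with it). These were 54.2%, 62.5% and 62.5% of pairs, beside 46.8%, 49.2% and 44.6% of all probes. With the minimum fold change and the slide as a block, 3 pairs were called for the difference between lineages. Beside them, 6043 of 29538 probes were called at the second step and 10720 at the third. Sign changes of single members are listed only where the limma adjusted p was under 0.05 in the main fit or the alternative. Others are left out, such as Ezh2 from KLS to PreMegE (0.29, and -0.17 with spike-in scaling). Spike-in scaling turned the sign most often. It gave for Ezh1 -0.017 from CFUe to Ter119, 0.91 from PreGM to GMP and -0.26 from GMP to Mac1Gr1, for Eed -1.92 from GMP to Mac1Gr1, for Suz12 -0.061 from KLS to PreMegE and -0.22 from KLS to PreGM, for Bmi1 0.70 from PreGM to GMP, and for Cbx8 -1.11 from CFUe to Ter119, 0.95 from PreGM to GMP and -0.43 from GMP to Mac1Gr1. In CFUe against GMP it gave -0.58 for Ezh2, -0.78 for Eed, -0.88 for Suz12 and -0.90 for Bmi1, and in Ter119 against Mac1Gr1 -0.089 for Cbx7. For the difference between lineages at the second step it gave -0.97 for Ezh2, -1.03 for Suz12, -1.06 for Bmi1 and -0.66 for Cbx7. The median of all probes moved with it, from -0.021 to 0.99 from PreGM to GMP and from 0.22 to -1.15 for CFUe against GMP. The other Cbx2 probe gave 0.93 from CFUe to Ter119, 0.61 from GMP to Mac1Gr1, -0.035 for CFUe against GMP and -0.39 for the second step, and normexp gave -0.049 for Cbx2 at the third step. Cbx7 minus Cbx2 became -0.40 for CFUe against KLS within slides and -1.45 for GMP against KLS with the other probe. The cause of these turns was not tested. Leaving out 1 array changed 9 of the single-member calls, of which 6 passed the threshold and 3 were lost. The compared fractions share a slide in 4 comparisons, where all 8 called changes kept their sign on it. Some uncalled changes turned, such as Cbx8 from PreGM to GMP (0.30 on the slide, -0.067 over all arrays). The other 5 comparisons, among them GMP to Mac1Gr1 and Ter119 against Mac1Gr1, share no slide, so their calls could not be checked within one. Correlations of deviations between arrays with the same replicate number ran from -0.43 to 0.37 over 63 pairs, with 21 pairs over 0.1. Their median was 0.0023, against 0.0072 for arrays with different numbers, and 10 of 21 arrays were best with their own number. Whether some arrays were paired cannot be told from these values. In both CFUe and PreGM, replicate 3 alone carried Y-linked transcripts. With the replicate block the 16 calls at the steps stayed 16 and no call changed. Dim probes limit Cbx2 in Mac1Gr1, and its other probe in 4 fractions.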
